A study of Mus musculus with 44 samples.

Results

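The 10 genes described here are targets of the transcription factor p53: Cdkn1a, Ccng1, Mdm2, Zmat3, Phlda3, Bbc3, Bax, Trp53inp1, Eda2r and Gdf15. They were taken as a named list, by gene symbol, from the 43411 genes of the table, and all 10 were among the 17037 genes whose mean normalized count was above 3 and that were tested. RNA came from the back skin of 44 female wild-type (WT) C57Bl/6 mice, 8 weeks old at the start. Each daily injection under the skin was 100 µL, of saline in 10 mice and of bleomycin at 1 U/mL, as the labels and methods give it, in the others. A legend in the supplement gives a lower bleomycin concentration. Of these, 10 mice received bleomycin for 2 weeks and 10 for 4 weeks, while 6 and 8 mice received it for 4 weeks and then recovered without it for 6 and 10 weeks. The recovery mice were therefore older at harvest than the bleomycin mice. The time at which the saline mice were harvested is not given in the sources used here. Age and recovery therefore cannot be told apart where the recovery mice are compared with saline or bleomycin mice. Whether the bleomycin mice matched the saline mice in age is not known either, and the 4-week mice were older than the 2-week mice.

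Bleomycin is a glycopeptide antibiotic that cuts DNA and is injected into mouse skin to model the dermal fibrosis of systemic sclerosis. Breaks in DNA activate the kinases ATM and ATR, which stabilise p53, and p53 then binds its response elements and raises the transcription of genes that stop division, repair damage or kill the cell. One of these genes, Mdm2, encodes the ubiquitin ligase that returns p53 to a low level, so that p53 protein can change even where Trp53 mRNA does not. Neither p53 protein nor its activity was measured here.

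The table holds normalized counts, that is, reads per gene divided by a size factor for each mouse. Between 8509094 and 15285577 reads per mouse fell on genes (median 11310008). A gene is called a differentially expressed gene (DEG) here when its fold change was above 1.5 and its adjusted p was below 0.05 in limma, fitted to log2(normalized count + 1) over all genes tested and all 44 mice. "Rose" and "fell" are used of an adjusted p below 0.05 at any size. Fold changes are on that log2 scale, so that they come out too small for genes with few reads. All markers of keratinocytes, fibroblasts, fat and muscle looked for were present in every group. Saline mouse 1 and mouse 2 of the 2-week group had the lowest median correlations to their own groups, at 0.942 and 0.938. Mouse 4 at 10 weeks of recovery (0.947), saline mouse 6 (0.949) and mouse 7 at 10 weeks of recovery (0.954) followed closely.

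The members lie on 9 chromosomes, and Bax and Bbc3 share chromosome 7. Because p53 acts by binding DNA, the promoters of the members were read from RefSeq (GRCm38.p6), in windows from 250 bases before to 50 bases after each start. Windows were given for 8 of the 10 members, 12 windows in all, and those of Zmat3 and Trp53inp1 were not given. Each was searched for the p53 half-site consensus, a motif of 10 letters that reads the same on both strands. The stretches below are those of the 4 members with a match, with the motif in capitals. In the first pair the capitals mark 2 half-sites side by side that match 19 of 20 letters, so that not every capital there matches. In the second pair they mark 1 half-site without mismatch.
Cdkn1a, chr17:29090923-29090952, plus strand, motif 51 to 32 bases before the start: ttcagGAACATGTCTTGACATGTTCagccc
Ccng1, chr11:40755457-40755486, minus strand, motif 195 to 176 bases before the start: aggccAGACCTGCCCGGGCAAGCCTtggca
Mdm2, chr10:117710925-117710954, minus strand, motif 186 to 177 bases before the start: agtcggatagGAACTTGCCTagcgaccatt
Bax, chr7:45467080-45467109, minus strand, motif 201 to 192 bases before the start: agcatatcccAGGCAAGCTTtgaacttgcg
A half-site without mismatch was found in 8.36% of all 32851 RefSeq windows, and 2 side by side with at least 19 of 20 letters in 0.0883% (29 windows). The Cdkn1a match lay in the window at chr17:29090729-29091028, and its distance is from the start of that window. This window held 2 half-sites without mismatch, not both of them in the stretch shown. Another Cdkn1a window, at chr17:29093519-29093818, held 0 half-sites without mismatch and matched at best 15 of 20 letters. The windows of Phlda3, Bbc3, Eda2r and Gdf15 held none, which says only that these letters are not in these windows. No binding was measured in these samples.

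In saline skin the members differed widely in level. Per kilobase of exon, Cdkn1a stood highest, at a mean of 908.3 ± 95.9 normalized counts (SD, n = 10), followed by Ccng1 at 678.1 ± 162.7 and Phlda3 at 587.4 ± 69.6. Bax, Trp53inp1 and Mdm2 followed at 234.8 ± 50.5, 127.2 ± 17.1 and 113 ± 6.76. Zmat3 and Bbc3 stood at 55.8 ± 6.0 and 45.9 ± 4.93 and Eda2r at 20.4 ± 7.44, all per kilobase. Gdf15 was lowest, at 1.69 ± 0.778 per kilobase, which came from 1 to 5 reads per mouse.

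All 10 members rose at both bleomycin times. At 2 weeks all 10 members were DEGs with higher levels, against 9.3% of all genes tested, and at 4 weeks 9 were, against 10.5%. The median log2 fold change of the members was 0.89 at 2 weeks and 0.86 at 4 weeks, with a median over all genes of 0.00 at both. At 6 weeks of recovery 3 members were DEGs against saline (Phlda3, Eda2r and Gdf15), where 3.33% of all genes were higher DEGs. At 10 weeks of recovery 2 members were (Eda2r and Gdf15), against 2.05%. The 4 comparisons use the same saline mice and are not independent of each other. In bulk skin, more RNA per cell and more cells that express a gene cannot be told apart.

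**Figure D1:**
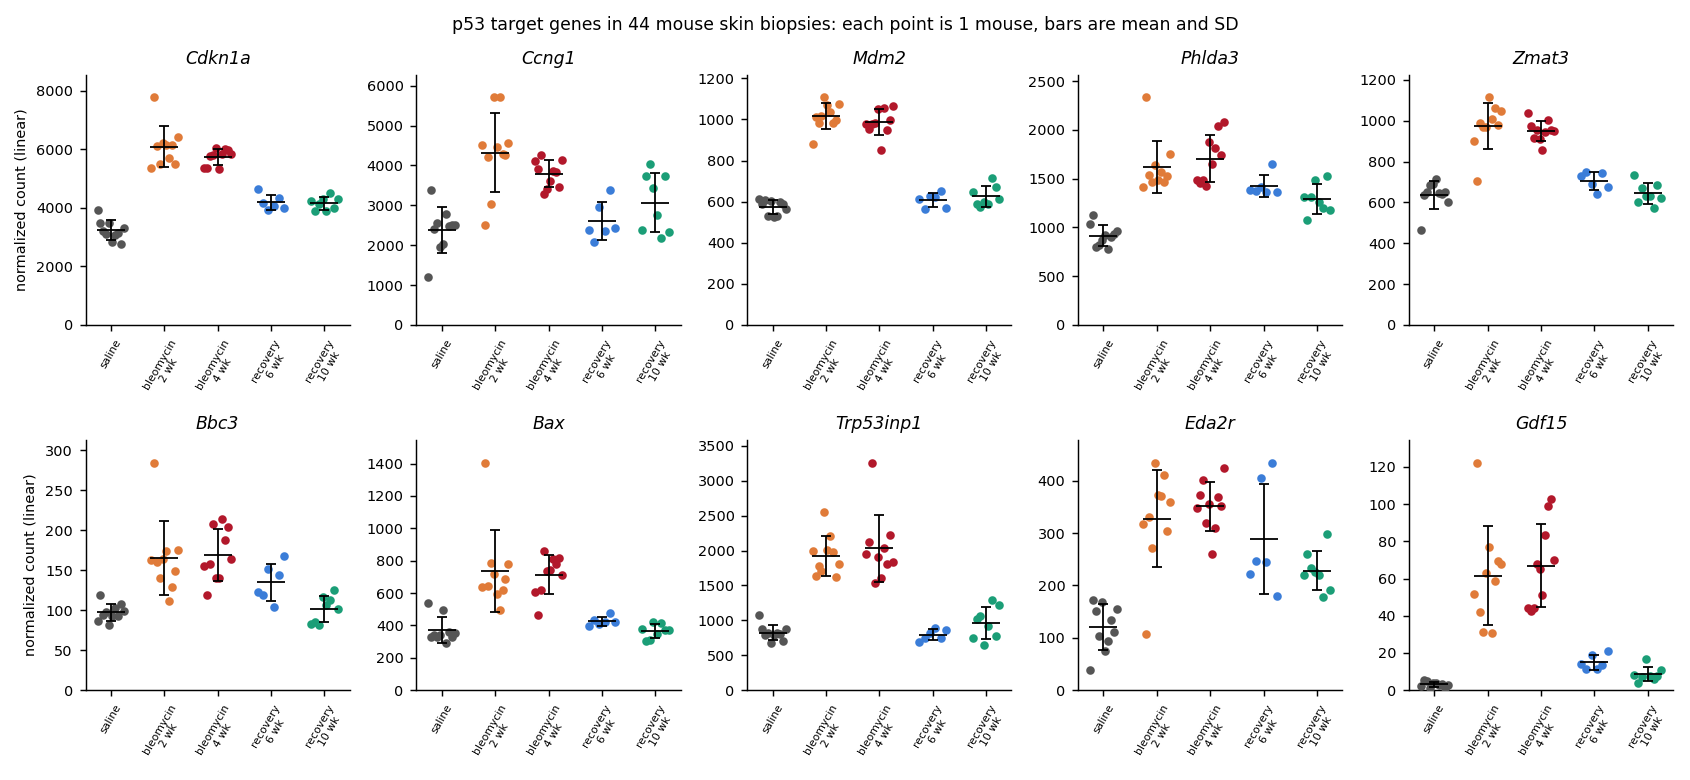
Normalized count (linear axis from 0) of each of the 10 genes in each of the 44 mice, by group, with 1 point per mouse and bars for mean and SD. Mdm2, for example, ran from 526.1 to 614 with saline and from 882 to 1108 at 2 weeks of bleomycin. After 6 weeks of recovery it ran from 564.2 to 651.

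Cdkn1a encodes p21, the inhibitor of cyclin-dependent kinases through which p53 stops the cell cycle. The saline mice had a lowest, median and highest normalized count of 2754, 3158 and 3918, and the 2-week mice of 5367, 6130 and 7771. At 4 weeks the values were 5306, 5811 and 6033, at 6 weeks of recovery 3921, 4113 and 4625, and at 10 weeks of recovery 3879, 4178 and 4510. Every mouse of the bleomycin groups and of the 6-week recovery group lay above every saline mouse, and 6 of 8 mice did at 10 weeks of recovery. Cdkn1a rose by a log2 fold change of 0.91 ± 0.06 (SE) at 2 weeks (limma, adjusted p = 3.43e-17) and 0.83 ± 0.06 at 4 weeks (adjusted p = 7.09e-16). In the recovery groups it was higher than with saline, by 0.38 ± 0.07 at 6 weeks (limma, adjusted p = 0.000153) and 0.37 ± 0.06 at 10 weeks (adjusted p = 0.000124). Both values are below the 1.5-fold threshold.

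Ccng1 encodes cyclin G1, an early p53 target that binds protein phosphatase 2A and acts on Mdm2. Its saline values ran from 1203 over a median of 2495 to 3382, a wider spread than that of Cdkn1a. At 2 weeks they ran from 2498 over 4384 to 5709 and at 4 weeks from 3277 over 3850 to 4260. Both bleomycin groups overlapped the saline group, though 8 of 10 mice at 2 weeks and 9 of 10 at 4 weeks exceeded the saline maximum. Ccng1 rose at 2 weeks (log2 fold change 0.87 ± 0.14, limma adjusted p = 2.23e-06) and 4 weeks (0.71 ± 0.14, adjusted p = 6.03e-05). Medians were 2413 at 6 weeks of recovery and 3089 at 10 weeks, and neither group passed the test against saline (0.15, 95% interval -0.17 to 0.47, and 0.37, 0.08 to 0.67).

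Mdm2, the ubiquitin ligase of the p53 feedback loop, had the smallest standard errors of the members. Saline mice ran from 526.1 over 586.9 to 614, 2-week mice from 882 over 1015 to 1108, and 4-week mice from 851.7 over 979.6 to 1066. No bleomycin mouse overlapped the saline mice. The log2 fold changes were 0.82 ± 0.05 at 2 weeks (limma, adjusted p = 2.15e-18) and 0.78 ± 0.05 at 4 weeks (adjusted p = 1.25e-17). Recovery medians were 617.8 at 6 weeks and 607.2 at 10 weeks. Both groups overlapped the saline mice, with 3 of 6 and 4 of 8 mice above every saline mouse. The differences from saline were 0.08 (95% interval -0.03 to 0.19) and 0.12 (0.02 to 0.22), neither of which passed the test after adjustment.

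Zmat3 encodes a zinc finger protein that binds RNA and limits growth downstream of p53. Its saline values were 463.8, 648.6 and 712.8 (lowest, median, highest), against 703.6, 984.6 and 1115 at 2 weeks and 855.1, 952.8 and 1037 at 4 weeks. The groups did not overlap at 4 weeks, and at 2 weeks 1 mouse of 10 lay inside the saline range. Zmat3 rose by 0.61 ± 0.06 at 2 weeks (limma, adjusted p = 1.59e-10) and by 0.58 ± 0.06 at 4 weeks (adjusted p = 5.72e-10). Both values lie at the log2 threshold of 0.585: Zmat3 was the 1 member that was no DEG at 4 weeks, and without saline mouse 1 its 2-week value was 0.56. At 4 weeks it was a DEG without any 1 of mice 4, 5 and 6 of the saline group or mice 3, 5 and 6 of its own (0.59 to 0.60), and in edgeR (0.59). The recovery medians, 710.7 and 630.4, gave differences from saline of 0.15 (95% interval 0.00 to 0.30) and 0.02 (-0.12 to 0.15) that did not pass the test.

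Phlda3 is a small protein with a pleckstrin homology domain that competes with the kinase Akt for membrane lipids. Its level was higher than with saline in both bleomycin and both recovery groups. Saline mice ran from 781.8 over 911.8 to 1130, 2-week mice from 1418 over 1531 to 2333, and 4-week mice from 1427 over 1700 to 2082. After 6 weeks of recovery the values were 1362, 1376 and 1647, all above every saline mouse. After 10 weeks they were 1076, 1282 and 1526, with 7 of 8 mice above every saline mouse. Phlda3 rose by 0.81 ± 0.08 at 2 weeks (limma, adjusted p = 3.51e-11) and 0.89 ± 0.08 at 4 weeks (adjusted p = 3.04e-12). It was higher than with saline by 0.64 ± 0.09 at 6 weeks of recovery (adjusted p = 8.28e-06) and by 0.50 ± 0.09 at 10 weeks (adjusted p = 0.000224).

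The next members act on cell death. Bbc3 encodes PUMA and Bax its effector in the same family, which opens pores in the outer mitochondrial membrane. Bbc3 had saline values of 82.0, 95.8 and 118.8, and bleomycin values of 111.2, 161.9 and 284.8 at 2 weeks and 119.6, 161.3 and 214.1 at 4 weeks. The groups did not overlap at 4 weeks, by a narrow gap. Bbc3 rose by 0.72 ± 0.12 at 2 weeks (limma, adjusted p = 3.96e-06) and 0.77 ± 0.12 at 4 weeks (adjusted p = 1.10e-06). At 6 weeks of recovery it was 0.45 ± 0.14 higher (adjusted p = 0.0285), a call that was lost without mouse 3, 5 or 6 of that group (adjusted p from 0.0767 to 0.0887). At 10 weeks of recovery the difference was 0.05 (95% interval -0.20 to 0.30).

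Bax had saline values of 293.7, 339.5 and 537.7, and ran from 494.1 over 667.6 to 1406 at 2 weeks and from 462.4 over 739.2 to 858.9 at 4 weeks. The highest saline value, of mouse 1, overlapped both bleomycin groups, in which 9 of 10 mice lay above it. Bax rose by 0.96 ± 0.12 at 2 weeks (limma, adjusted p = 1.7e-08) and 0.95 ± 0.12 at 4 weeks (adjusted p = 2.21e-08). No recovery mouse lay above the saline range, and the differences were 0.23 (95% interval -0.06 to 0.51) at 6 weeks and -0.01 (-0.26 to 0.25) at 10 weeks. Bax overlaps another annotated gene on the same strand, and Cdkn1a one on the opposite strand, so that their reads are uncertain as far as the counting could split them.

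Trp53inp1, a stress-induced nuclear protein that favours death and autophagy, had the largest fold change among the 5 members that passed no test against saline in recovery. Its values were 681.6, 809.4 and 1079 with saline, 1616, 1895 and 2549 at 2 weeks, and 1542, 1933 and 3261 at 4 weeks, with no overlap between bleomycin and saline mice. The log2 fold changes were 1.22 ± 0.11 (limma, adjusted p = 2.29e-12) and 1.28 ± 0.11 (adjusted p = 6.71e-13). Recovery medians were 789.3 and 973.2, both groups overlapped the saline mice, and the differences were -0.05 (95% interval -0.30 to 0.21) and 0.20 (-0.04 to 0.43).

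Eda2r encodes a receptor of the tumour necrosis factor family whose ligand is ectodysplasin A2. With saline the lowest, median and highest values were 38.15, 122.5 and 172.4, at 2 weeks 106.6, 345.2 and 433.3, and at 4 weeks 260.0, 353.9 and 423.8. At 6 weeks of recovery they were 180.0, 246.7 and 434.7, and at 10 weeks 178.1, 223.5 and 298.6. Every recovery mouse lay above every saline mouse at both times, which held for Eda2r alone among the members at 10 weeks (0.282% of all genes were higher without overlap there). Mouse 2 of the 2-week group, at 106.6, was the only mouse of the 4 groups inside the saline range. Eda2r rose by 1.47 ± 0.20 at 2 weeks (limma, adjusted p = 1.6e-07) and 1.64 ± 0.20 at 4 weeks (adjusted p = 1.55e-08). It was 1.30 ± 0.24 higher at 6 weeks of recovery (adjusted p = 0.000308) and 1.01 ± 0.22 at 10 weeks (adjusted p = 0.00311).

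Gdf15, a secreted stress cytokine of the transforming growth factor β superfamily, changed most. Saline mice had normalized counts from 1.14 over 3.13 to 5.71, 2-week mice from 30.95 over 61.0 to 122.3, and 4-week mice from 42.7 over 66.5 to 102.7. The recovery groups ran from 11.2 over 13.6 to 21.2 at 6 weeks and from 4.05 over 7.585 to 16.9 at 10 weeks. All groups but the last were clear of the saline range, and 7 of 8 mice were at 10 weeks of recovery. Gdf15 rose by 3.90 ± 0.23 at 2 weeks (limma, adjusted p = 6.51e-18) and 4.06 ± 0.23 at 4 weeks (adjusted p = 2.26e-18), and was higher by 2.00 ± 0.27 at 6 weeks of recovery (adjusted p = 1.39e-06) and 1.21 ± 0.24 at 10 weeks (adjusted p = 0.00155). With 1 to 5 reads in a saline mouse these sizes depend on the pseudocount: with 0.1 in place of 1 the 4 values were 4.30, 4.46, 2.34 and 1.47.

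**Figure D2:**
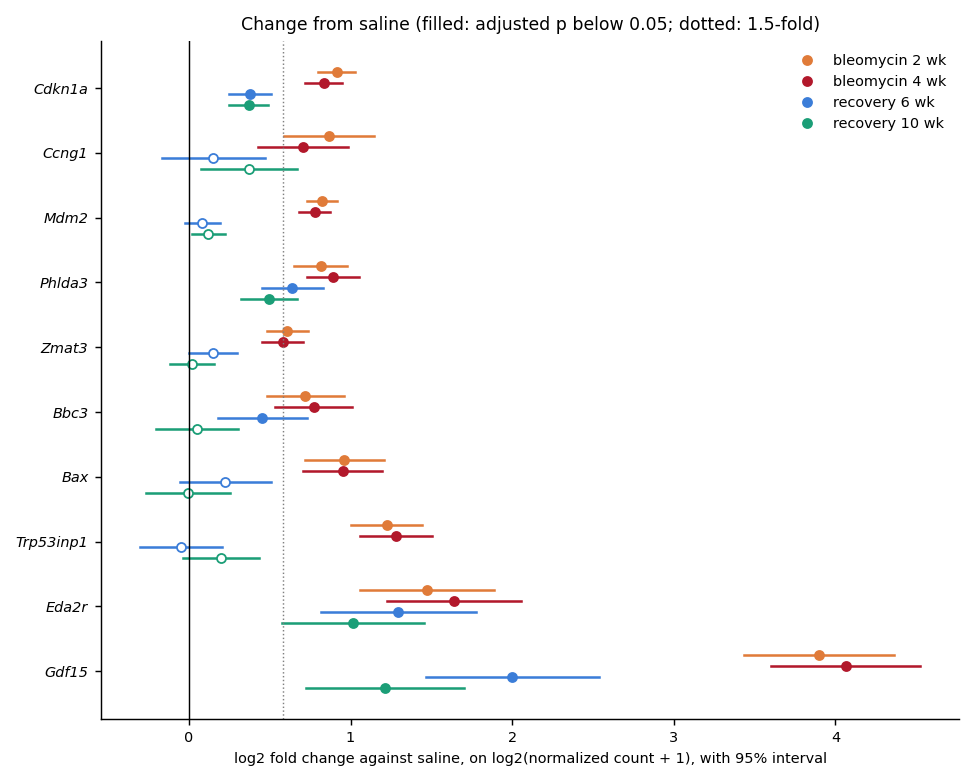
Log2 fold change against saline of the 10 genes (horizontal axis, on log2(normalized count + 1)) with 95% intervals, at 2 and 4 weeks of bleomycin and 6 and 10 weeks of recovery. Filled points have an adjusted p below 0.05 and the dotted line marks 1.5-fold. All bleomycin points are filled, 5 are at 6 weeks of recovery and 4 at 10 weeks.

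By count of groups that did not overlap, 5 members were higher in every 2-week mouse than in any saline mouse (3.44% of all genes) and 8 in every 4-week mouse (4.31%). In recovery 4 members were after 6 weeks (1.41%) and 1 after 10 weeks. At 4 weeks the exceptions were Ccng1 and Bax. At 6 weeks of recovery the 4 were Cdkn1a, Phlda3, Eda2r and Gdf15.

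The second pair of weeks of injections added no call. Between 4 and 2 weeks of bleomycin 0 of 10 members were DEGs in limma (2.35% of all genes were), 0 had an unadjusted p below 0.05, and edgeR and DESeq2 on the recovered reads also called 0. The differences were small for Mdm2 (-0.04, 95% interval -0.14 to 0.05) and Cdkn1a (-0.08, -0.20 to 0.03), and less closely bounded for Eda2r (0.17, -0.25 to 0.58) and Gdf15 (0.16, -0.30 to 0.63). The sign of the Eda2r and Bax differences rested on mouse 2 of the 2-week group: without it they were -0.003 and 0.10, against 0.17 and -0.01 with it.

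Recovery was then compared directly with the end of treatment. At 6 weeks of recovery 8 of 10 members had fallen from the 4-week level (13.4% of all genes tested fell) and 4 of them by more than 1.5-fold (7.14% of all genes were lower DEGs). These were Trp53inp1 (log2 fold change -1.33 ± 0.13, limma adjusted p = 5.42e-11), Gdf15 (-2.06 ± 0.27, adjusted p = 7.64e-08), Bax (-0.73 ± 0.14, adjusted p = 0.000107) and Mdm2 (-0.70 ± 0.05, adjusted p = 2.01e-13). Cdkn1a (-0.45), Zmat3 (-0.43), Ccng1 (-0.56) and Phlda3 (-0.25) fell by less, and Ccng1 was a DEG without mouse 3 or mouse 5 of the recovery group (-0.60 and -0.64). The Phlda3 call, at an adjusted p of 0.0402, was lost without any 1 of mice 5, 7, 8, 9 and 10 of the 4-week group or mice 1, 2, 3, 4 and 6 of the recovery group (adjusted p from 0.0556 to 0.0792), and with the replicate number as a block (0.0988). Bbc3 (-0.32, 95% interval -0.59 to -0.04, adjusted p = 0.0823) and Eda2r (-0.34, -0.82 to 0.13, adjusted p = 0.307) did not pass. For Bbc3, leaving out mouse 2 of the 2-week group, mouse 2 of the 4-week group or mouse 6 of the recovery group gave adjusted p-values from 0.0392 to 0.0483.

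At 10 weeks of recovery 9 of 10 members had fallen from the 4-week level (16% of all genes tested fell), and 6 were DEGs (9.1% of all genes were lower DEGs): Gdf15 (-2.85 ± 0.24, limma adjusted p = 1.04e-12), Trp53inp1 (-1.08 ± 0.12, adjusted p = 5.17e-10), Bax (-0.96 ± 0.13, adjusted p = 9.86e-08), Bbc3 (-0.72 ± 0.13, adjusted p = 1.28e-05), Mdm2 (-0.66 ± 0.05, adjusted p = 2.36e-14) and Eda2r (-0.62 ± 0.22, adjusted p = 0.0233). Eda2r lay near the threshold and was no DEG without mouse 6 of the recovery group (-0.58, adjusted p = 0.0489) or with the replicate block (-0.58, adjusted p = 0.0287). Zmat3, at -0.56 ± 0.07, was a DEG without mouse 1 of the recovery group (-0.59). Ccng1 (-0.34, 95% interval -0.63 to -0.04, adjusted p = 0.0735) was the member that did not pass. It did so without saline mouse 1, mouse 2 of the 2-week group or mouse 3 of the recovery group (adjusted p from 0.0375 to 0.0487).

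Groups without overlap below the 4-week mice were found for 5 members at 6 weeks of recovery (5.77% of all genes) and 6 at 10 weeks (5.25%). Cdkn1a, Mdm2, Zmat3, Trp53inp1 and Gdf15 were among them at both times. Between 10 and 6 weeks of recovery 0 members were DEGs or passed the test in limma (0.088% of all genes were DEGs), edgeR or DESeq2. At an unadjusted p below 0.05 were 2 members, Bbc3 (-0.41, 95% interval -0.69 to -0.12) and Gdf15 (-0.79, -1.35 to -0.23).

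Trp53, the gene of p53 itself, had mean normalized counts of 1028 ± 163.5 with saline (SD, n = 10), 844 ± 118.5 at 2 weeks and 889.9 ± 121.3 at 4 weeks of bleomycin (n = 10 each). In recovery they were 992.6 ± 49.5 after 6 weeks (n = 6) and 917.9 ± 154.1 after 10 weeks (n = 8). The groups overlapped throughout. Its mRNA fell by a log2 fold change of 0.28 ± 0.09 at 2 weeks (limma, adjusted p = 0.0139) and did not pass at 4 weeks (-0.20 ± 0.09, adjusted p = 0.077), while all 10 members rose at both times. Protein was not measured here.

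Of 19 genes that control p53 or sense DNA breaks, 3 rose and 2 fell at 2 weeks, and 2 rose and 4 fell at 4 weeks, with medians of 0.02 and 0.03. Over all genes tested 17.4% rose and 18.2% fell at 2 weeks, and 18.4% and 18.2% at 4 weeks. Among those that passed were H2afx, the histone variant phosphorylated at breaks (-0.73 ± 0.21 at 2 weeks and -0.93 ± 0.21 at 4 weeks, limma adjusted p = 0.00569 and 0.00046), and Pml, a nuclear body protein (0.72 ± 0.11 and 0.56 ± 0.11, adjusted p = 9.32e-07 and 6.46e-05). At 2 weeks Mdm4, the partner of Mdm2, rose by 0.31 ± 0.08 (adjusted p = 0.00329). At 4 weeks the repair gene Brca1 fell (-0.72 ± 0.23, adjusted p = 0.0106). In recovery 2 of the 19 fell at 6 weeks, Brca1 (-0.81 ± 0.26) and the checkpoint kinase Chek1 (-0.75 ± 0.18), and 1 at 10 weeks, Chek1 (-0.57 ± 0.16). The shares of all genes tested that fell were 4.09% at 6 weeks and 2.3% at 10 weeks. Brca1 and Chek1 are also known to be expressed in dividing cells.

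Among 39 other p53 target genes, 24 rose and 3 fell at 2 weeks, and 22 rose and 3 fell at 4 weeks. Of all genes tested 17.4% and 18.4% rose at these times, and 18.2% fell at both. The median log2 fold change of the 39 was 0.36 and 0.37, below that of the 10 members. Pmaip1, which encodes the death protein NOXA, rose by 1.56 ± 0.13 and 1.5 ± 0.13 (limma, adjusted p = 4.79e-13 and 1.92e-12), and the metabolic enzyme gene Dcxr by 1.39 ± 0.13 and 1.48 ± 0.13. In recovery 3 of the 39 rose and 3 fell at 6 weeks (5% of all genes rose and 4.09% fell), with a median of -0.00. At 10 weeks 4 rose (3.54%), with a median of 0.03. Among the genes that passed were the death receptor genes Fas (0.46 ± 0.13) and Tnfrsf10b (0.37 ± 0.12), Plk3 (-0.68 ± 0.22) and Pidd1 (-0.57 ± 0.16) at 6 weeks, and Ak1 (0.50 ± 0.15) and Tigar (0.34 ± 0.11) at 10 weeks.

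Gdf15 is also a target of the stress factor ATF4, as are the genes of a further list, of which 11 of 12 were tested. At 2 weeks 3 of these rose, Atf3 (0.92 ± 0.18, limma adjusted p = 8.13e-05), Vldlr (0.76 ± 0.15) and Ddit3 (0.35 ± 0.08). Of the others 1 fell, and the median was -0.14, where 17.4% of all genes tested rose and 18.2% fell. At 4 weeks 3 rose and 2 fell, with a median of -0.11 (18.4% of all genes tested rose and 18.2% fell). At 6 weeks of recovery 1 rose, Ddit3 (0.39 ± 0.10, limma adjusted p = 0.00789), where 5% of all genes rose. At 10 weeks 0 passed, where 3.54% rose. Whether ATF4 acted on Gdf15 was not tested.

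The p53 response is known for stopping division. Of 15 tested genes of cell division 9 fell at 2 weeks (median -0.47), 13 at 4 weeks (median -0.98) and 11 at 6 weeks of recovery (median -0.82), where 18.2%, 18.2% and 4.09% of all genes tested fell. At 10 weeks 0 passed in limma, with a median of -0.55 (2.3% of all genes fell). No division gene rose at any of these times. Ccnb1, cyclin B1, fell by 1.17 at 4 weeks (SE 0.19, limma adjusted p = 2.94e-06). Growing hair follicles hold many dividing cells, and markers of hair growth differed between the groups as given next.

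**Figure D3:**
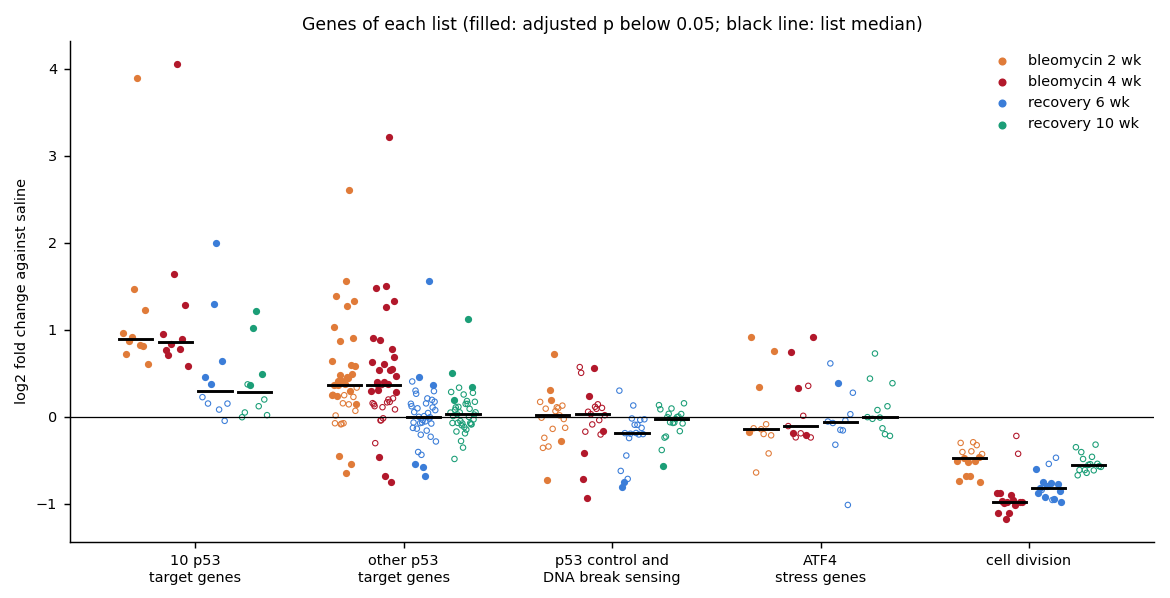
Log2 fold change against saline (vertical axis) of each gene of 5 lists at 2 and 4 weeks of bleomycin and 6 and 10 weeks of recovery, with 1 point per gene, filled where the adjusted p was below 0.05, and a black line at the list median. The 10 target genes sit at medians of 0.89 and 0.86 under bleomycin, and the cell division genes at -0.47 and -0.98.

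Markers of some other cell types differed between the groups. All 13 measured markers of hair follicle growth fell at 2 and 4 weeks of bleomycin (18.2% of all genes tested fell at both), and none passed in recovery. Their summed normalized count ran from 2447 to 242200 in saline mice, from 286.3 to 2353 at 2 weeks and from 305.4 to 5646 at 4 weeks. It ran from 440.8 to 111700 at 6 weeks of recovery and from 1747 to 179200 at 10 weeks. With the mean hair marker level of each mouse as a covariate, the number of members called fell from 10 to 7 at 2 weeks, from 9 to 7 at 4 weeks and from 3 to 2 at 6 weeks of recovery. The share of all genes called with this covariate was not computed. A loss particular to the members can therefore not be told from a general loss of calls. Cdkn1a, Mdm2, Phlda3, Bax, Trp53inp1, Eda2r and Gdf15 stayed DEGs at both bleomycin times, with Cdkn1a at 0.99 and 0.89 and Trp53inp1 at 1.63 and 1.64. Zmat3 passed below the fold threshold (0.48 and 0.47), and Ccng1 did not pass (0.46, limma adjusted p = 0.119 at 2 weeks, and 0.36, adjusted p = 0.183 at 4 weeks). Bbc3 did not pass at 2 weeks (0.50, adjusted p = 0.0524) nor at 6 weeks of recovery (0.39, adjusted p = 0.1), and at 4 weeks it passed just below the fold threshold (0.58, adjusted p = 0.00968). Phlda3 at 6 weeks of recovery also passed just below it (0.58, adjusted p = 5.94e-05). Against 4 weeks of bleomycin, Ccng1 and Phlda3 no longer passed at 6 weeks of recovery, nor Phlda3 and Eda2r at 10 weeks, where Ccng1 stood at 0.02 and 4 members in place of 6 were DEGs. Mice 3 and 8 of the 4-week group and mouse 8 of the 2-week group had mean log2 hair marker levels of 7.71, 7.21 and 6.78, within the saline range of 6.59 to 12.9, and the other 17 bleomycin mice lay below that range, so that hair growth and treatment cannot be fully told apart here.

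Of 10 macrophage markers 7 rose and 1 fell at both bleomycin times, and of 10 T cell markers 7 rose at 2 weeks and 1 at 4 weeks. Among all genes tested 17.4% rose at 2 weeks and 18.4% at 4 weeks, and 18.2% fell at both times. The T cell count at 4 weeks lay below that share. The summed macrophage level ran from 12010 to 29540 with saline, from 25950 to 66100 at 2 weeks, from 25820 to 49250 at 4 weeks, from 17020 to 24410 at 6 weeks of recovery and from 13510 to 20260 at 10 weeks. Of 10 fibroblast markers 8 fell at 2 weeks and 4 at 4 weeks, and of 10 adipocyte markers 6 and 7 fell. Keratinocyte markers changed little, with 2 of 10 higher and 1 lower at 2 weeks, not far from the shares of all genes. No marker of these lists was at 0 in a whole group. The part of these cell types in the members' levels was not tested, and whether a member rose in a given cell type cannot be read from whole skin.

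The 10 members did not vary as a block from mouse to mouse. After group means were taken off, 18 of 45 pairs correlated with an adjusted p below 0.05 (two-sided permutation within groups, 100000 resamples, Benjamini-Hochberg over the 45 pairs), 13 positively and 5 negatively by Pearson r. By Spearman rho 12 of these pairs passed, 10 positive and 2 negative (Ccng1 and Eda2r, each with Bax). The strongest positive pair was Ccng1 with Eda2r (Pearson r = 0.76, Spearman rho = 0.64, n = 44, permutation p adjusted over 45 pairs 0.00045 and 0.00135, and r = 0.57 without the 2 mice farthest out). Bbc3 with Gdf15 (r = 0.60, rho = 0.54, adjusted permutation p = 0.00075 and 0.00697, r = 0.50 without the 2) and Phlda3 with Bax (r = 0.60, rho = 0.53, adjusted permutation p = 0.00476 and 0.00709, r = 0.40 without the 2) also varied together. Cdkn1a with Mdm2, Phlda3, Bax and Gdf15 also passed by both measures (r = 0.43, 0.55, 0.55 and 0.48). Without the 2 these r were 0.36, 0.36, 0.22 and 0.37. So did Bbc3 with Bax, Phlda3 with Gdf15 and Bax with Gdf15 (r = 0.58, 0.52 and 0.49). Without the 2 these were 0.50, 0.39 and 0.35. Opposite deviations were found for Ccng1 with Bax (r = -0.64, rho = -0.52, adjusted permutation p = 0.00045 and 0.00709, r = -0.43 without the 2). Zmat3 with Eda2r (r = 0.66, rho = 0.31, r = 0.22 without the 2) rested largely on the 2 mice farthest out in Eda2r. With saline mouse 1 and mouse 2 of the 2-week group left out, the number of pairs dropped to 9. By group the r of Ccng1 with Eda2r ran from 0.52 to 0.86, while that of Ccng1 with Bax ran from -0.81 to 0.57.

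**Figure D4:**
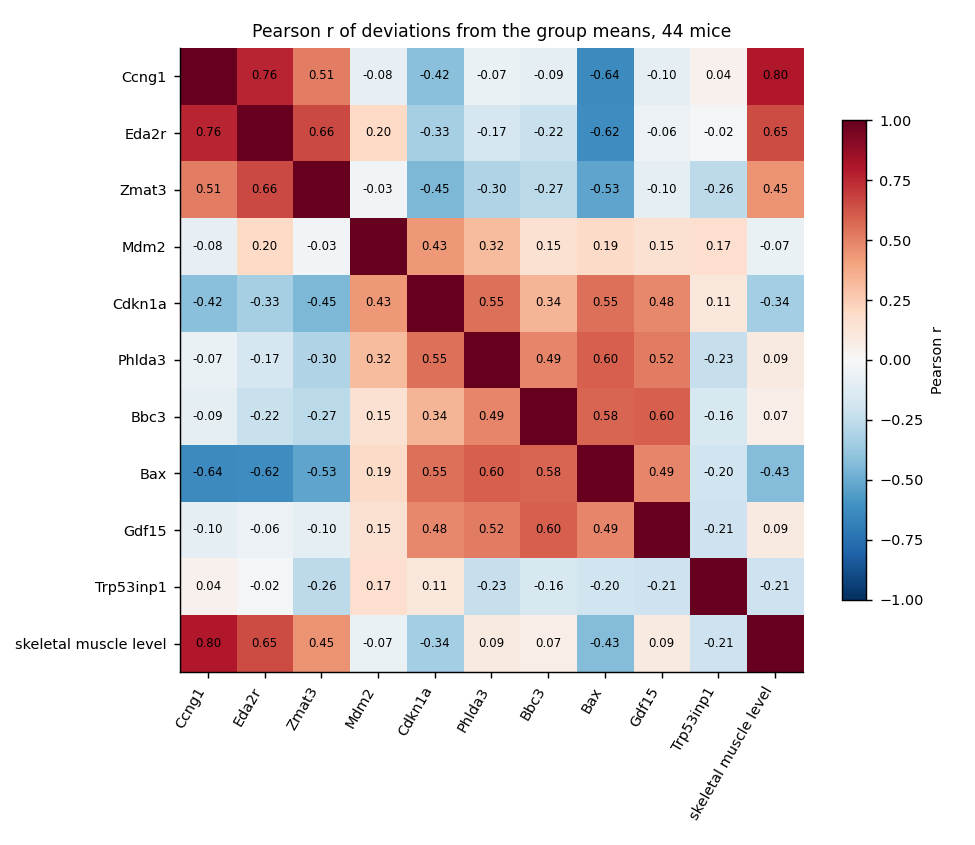
Pearson r of the deviations from the group means over 44 mice for each pair of the 10 genes, and of each gene with the mean level of 10 skeletal muscle markers, with red for positive and blue for negative values. Ccng1 and Eda2r (0.76) go together with the muscle level (0.80 and 0.65), and Bax runs opposite to Ccng1 (-0.64).

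Ccng1 and Eda2r went with the muscle in the biopsy. Within groups, the mean log2 level of 10 skeletal muscle markers correlated with Ccng1 (r = 0.80, rho = 0.67, n = 44, adjusted permutation p = 0.0001 for both, r = 0.71 without the 2 mice farthest out) and Eda2r (r = 0.65, rho = 0.49, adjusted permutation p = 0.00095 and 0.00565, r = 0.54 without the 2), among 10 such relations. The 2 mice left out here were those farthest from the median deviation of the muscle level. By group the r of Ccng1 ran from 0.35 at 4 weeks to 0.95 with saline. That of Eda2r ran from 0.01 at 4 weeks to 0.82 at 6 weeks of recovery. Zmat3 (r = 0.45, rho = 0.18) and Bax (r = -0.43, rho = -0.20) passed by r (adjusted permutation p = 0.0388 and 0.0357) but not by rho (0.391 and 0.363). Mdm2 (r = -0.07, adjusted permutation p = 0.686) and Phlda3 (r = 0.09, adjusted permutation p = 0.686) did not pass. By group their r ran from -0.31 with saline to 0.87 at 6 weeks of recovery for Mdm2, and from -0.38 at 2 weeks to 0.95 at 6 weeks of recovery for Phlda3.

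The groups themselves differed little in muscle markers. None of the 10 passed at 2 weeks in limma, 1 rose and 1 fell at 4 weeks, and 1 rose at each recovery time. At 4 weeks 18.4% of all genes tested rose and 18.2% fell, and 5% and 3.54% rose at 6 and 10 weeks of recovery. The summed level ran from 106100 to 361900 with saline, 161000 to 382800 at 2 weeks, 184900 to 308100 at 4 weeks, 244900 to 423900 at 6 weeks of recovery and 236300 to 492900 at 10 weeks. Saline mouse 1, with the lowest muscle level, had the lowest Ccng1 (1203) and Eda2r (38.15) of all mice. With the muscle level as a covariate, added after the data were seen, Eda2r was still higher at 10 weeks of recovery (0.76, limma adjusted p = 0.00626). Against 4 weeks of bleomycin, Eda2r then fell at 6 weeks of recovery (-0.57, adjusted p = 0.0193) and Ccng1 at 10 weeks (-0.60, adjusted p = 3.26e-06).

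**Figure D5:**
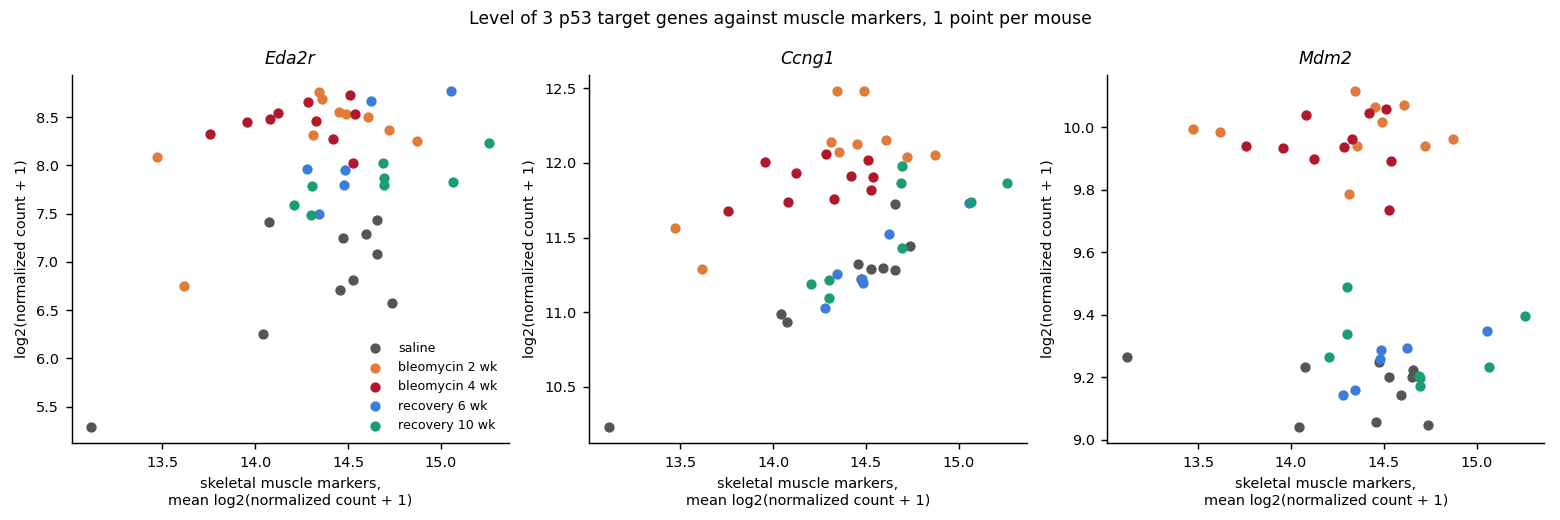
Level of Eda2r, Ccng1 and Mdm2 (vertical axes, log2(normalized count + 1)) against the mean log2 level of 10 skeletal muscle markers (horizontal axes), with 1 point per mouse coloured by group. With group means taken off, r with the muscle level over the 44 mice was 0.80 for Ccng1, 0.65 for Eda2r and -0.07 for Mdm2. By single group r ran from 0.35 to 0.95, from 0.01 to 0.82 and from -0.31 to 0.87.

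Of all tested genes that are no member, those whose deviations lay nearest to a member's are given as a description over 44 mice. Ccng1 was nearest to Rragd and Pkia (both r = 0.93), and Eda2r to Asb5 and Xirp2 (0.87 and 0.85), of which Xirp2 encodes a protein of striated muscle. Bax was nearest to Snrpc and Mcrip1 (both 0.90), Phlda3 to Atp5g3 and Pkig (0.82 and 0.81), Zmat3 to Ano1 and H2-M2 (0.82 and 0.80) and Trp53inp1 to Bnip3l and Cldn1 (both 0.80). Bbc3 was nearest to Zfp524 and Fbxw4 (0.79 and 0.77), Cdkn1a to Eif2b4 and Gtpbp6 (both 0.71), Gdf15 to Tysnd1 and Ogfod2 (0.65 and 0.64), and Mdm2 to Lcat and Ccn1 (0.58 and 0.56). These genes were chosen for the highest r among all tested genes, so the values are high by choice.

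Cdkn2a, whose products p16 and ARF act in lasting cell cycle arrest, had its highest levels in recovery. Its mean normalized count was 1.63 ± 1.59 with saline (SD, n = 10), 5.78 ± 4.53 at 2 weeks and 21.0 ± 8.97 at 4 weeks of bleomycin (n = 10 each), then 126.4 ± 42.9 after 6 weeks (n = 6) and 88.25 ± 25.55 after 10 weeks of recovery (n = 8). Against 4 weeks of bleomycin Cdkn2a rose by a log2 fold change of 2.57 ± 0.35 at 6 weeks of recovery (limma, adjusted p = 3.53e-07) and 2.06 ± 0.33 at 10 weeks (adjusted p = 2.54e-06), where 8 and 9 of the 10 members fell.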

How the data were processed

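RNA of 44 mouse back skin biopsies was sequenced from stranded mRNA libraries. Per the labels and the submitters' processing notes, the authors aligned reads to mm10 with STAR 2.4.0, counted them per gene and divided each count by a DESeq2 1.12.3 size factor per mouse, and the deposited signal is this normalized count. Which tool counted the reads, with which strand option and gene models, is not given in the sources used here. Whole reads were recovered from the value of 1 read in each mouse (tolerance 0.1), and 100% of values were whole. In 1 mouse the step lay too near 1 to be told from rounding. Of 43411 gene identifiers, 42929 (98.9%) matched a symbol, and positions are of GRCm38. No column was left unassigned.

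Genes with a mean above 3 were tested with limma 3.58.1, with a trend of variance on the mean, on log2(normalized count + 1) (R 4.3.3), in 1 fit of the 5 groups, with Benjamini-Hochberg adjustment over all genes. DEGs changed more than 1.5-fold in either direction with an adjusted p under 0.05. As alternatives, edgeR 4.0.16 and DESeq2 1.42.0 were run on the recovered reads, beside other pseudocounts, filters, normalizations and covariates and each mouse left out. The tests were tried on simulated data first. Nothing in the labels but the replicate number separates the mice of a group. The p-values of limma test differences between group means against the spread between mice within groups. Intervals cover that spread, and the depth sets a floor of 3 reads.

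The genes named were the 10 members, per list of the p53 pathway and comparison with saline the 3 largest changes with an adjusted p below 0.05, Trp53, per member the 2 genes nearest by r, and Cdkn2a. Ccnb1, Fas and Tnfrsf10b were chosen after their values were seen. A gene that this rule covers is not reported here. The members and lists were chosen with earlier results of these data known. Of the lists, 1 division gene and 2 hair markers were not analysed here. Correlations were tested by permutation within groups in Python 3.11.15 with numpy 2.4.6, pandas 2.3.3 and scipy 1.17.1, and figures were drawn with matplotlib 3.10.9. Replicate numbers of the labels name different animals in each group and did not pair the mice.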

Additional observations from a re-analysis of the deposited data

Results flagged for a closer look

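In 11 of 50 groups of member values, the highest or lowest mouse lay farther from the others than Dixon's test allows at 95%, which chance gives in about 1 in 20 groups. Of these, 7 fell on mouse 2 of the 2-week group and 2 on saline mouse 1. Mouse 2 had the highest values of its group in Cdkn1a (7771), Phlda3 (2333), Bbc3 (284.8), Bax (1406) and Gdf15 (122.3), and the lowest in Zmat3 (703.6) and Eda2r (106.6). Saline mouse 1 had the lowest Zmat3 (463.8) and the highest Trp53inp1 (1079) of the saline mice. The other 2 were mouse 5 at 6 weeks of recovery, with a Phlda3 of 1647, and mouse 3 at 4 weeks, with a Trp53inp1 of 3261. The values of 1 mouse are not independent of each other, since they share a library.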

How the results depend on the processing

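Over all alternatives the count of members called kept within 1.5 times of its value, except in 3 comparisons tested without a fold change threshold, where it was 5 and 4 for the 6-week and 10-week recovery groups against saline and 8 for the 6-week group against 4 weeks of bleomycin (3, 2 and 4 with it). With each mouse left out in turn the counts ranged from 9 to 10 at 2 weeks, 9 to 10 at 4 weeks, 4 to 5 and 5 to 7 for the 6-week and 10-week recovery groups against 4 weeks of bleomycin, and stayed at 3, 2, 0 and 0 elsewhere. Correlated pairs numbered 9 without saline mouse 1 and mouse 2 of the 2-week group, against 18. The sign turned for Bax (0.1) and Eda2r (-0.003) between 4 and 2 weeks without those mice or without mouse 2 alone (ranges with each mouse left out: -0.07 to 0.1 and -0.003 to 0.22), and for Ccng1 at 10 weeks of recovery against 4 weeks of bleomycin with the hair covariate (0.02). None of these had passed a test, and turns of such values within 0.1 of 0 were not counted. The cause was not tested. Of 960 values of single members under the other alternatives, 941 kept direction and side of the threshold, as did 3499 of 3520 with 1 mouse left out. With the replicate number as a block the counts were 10, 9, 3 and 2 against saline and 0, 4, 5 and 0 in the direct comparisons. The numbers did not pair the mice: deviations of same-numbered mice had a median correlation of -0.00221, and 4 of 44 mice correlated best with their own number. Other scalings moved the median of all genes by at most 0.0215. Low depth limits Gdf15 in saline skin most, with 1 to 5 reads per mouse.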
